A study of Mus musculus with 6 samples.

Results

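The genes described here encode the initiation and elongation factors of cytosolic translation, and they were followed in the testis of mice given JQ1, an inhibitor of the BET bromodomain proteins that include the testis-specific BRDT. They were taken by name: every gene whose symbol on the array starts with Eif1, Eif2, Eif3, Eif4, Eif5, Eif6, Eef1 or Eef2. The array held 125 probes for 63 such genes, out of 19057 genes with a named probe. A probe counted as measured where its signal stood above the negative-control beads at a detection p-value under 0.05 in at least 2 of the 5 mice, which left 88 probes for 51 of these genes, out of 11755 genes measured in all. Neither the symbols nor the detection rule used the size of a change with JQ1, but members were chosen with earlier results of these data known. Detection in JQ1 mice alone was enough to keep a probe, as for Eif4e. Values are background-corrected, quantile-normalized log2 signals, so that a difference of 1 is a 2-fold change, and a gene is represented by its brightest measured probe unless another is named.

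Whole testes came from male C57/129 mice, named in the methods as C57BL6/J/129S5 hybrids, in 2 groups that differed in the agent given. In the JQ1 group, 3 mice were injected with 50 mg/kg of the compound once a day for 6 weeks, between 6 and 12 weeks of age. In the control group, 2 mice received the vehicle alone over the same weeks. Each mouse was hybridised to a single-colour bead array, and control mouse 1 to 2 arrays, whose values were averaged, so that 6 arrays stand for 5 mice and every p-value below rests on 3 animals against 2.

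Translation of most messenger RNAs starts when the initiator tRNA, carried to the small ribosomal subunit by the GTP-binding factor eIF2 with the help of eIF1, eIF1A, eIF3 and eIF5, is brought to a capped message by eIF4E, eIF4G and the helicase eIF4A. eIF2 must be recharged with GTP by eIF2B after each round, and kinases that phosphorylate eIF2 stop this recharging, while eIF4E is held in check by its binding proteins. eEF1A then delivers each further tRNA and eEF2 moves the ribosome along the message. In the testis, translation has a particular part because many messages of late germ cells are stored and translated only after transcription has ceased.

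Of the 51 measured genes, 15 were higher and 5 lower in JQ1-treated testes at an adjusted p under 0.05 (limma's moderated test with Benjamini-Hochberg adjustment over all measured probes), and 31 did not pass. Among all measured genes 25% were higher and 21.6% lower by the same rule. The share of translation factor genes that was higher, 29.4%, was thus near that of all genes, and the share that was lower, 9.80%, was below it. The median change was 0.08 on the log2 scale, against 0.00 over all measured genes, and changes at the brightest probe lay between -1.10 and 1.05. Only Eif4a1 rose and only Eif2s3x-ps1 fell past 2-fold, in a background of 8.43% of all genes that rose and 2.84% that fell that far. Signals of the JQ1 and control mice did not overlap for 19 genes that were higher with JQ1 and 9 that were lower, whereas 33.9% and 32% of all genes had such a gap.

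In single animals, the median deviation of the 51 genes from the control mean was 0.08, 0.13 and 0.09 in JQ1 mice 1, 2 and 3, against -0.02 and 0.02 in control mice 1 and 2. All 3 treated animals lay above both controls, but the 2 control values mirror each other because deviations were taken from their mean. Over all measured genes the medians were 0.007, 0.008 and -0.0004 in JQ1 mice 1, 2 and 3. The shift of the 51 genes depended on scaling. Arrays set to a common median gave 11 genes higher and 11 lower with a members' median of -0.12, where all genes had -0.10, and cyclic loess gave 19 higher and 2 lower with a members' median of 0.18, where all genes had 0.07. Of all measured genes, 22.1% were higher and 29.6% lower with a common median, and 27.9% and 16.6% with cyclic loess. The direction of the family as a whole was therefore not settled, and the calls below are those of quantile normalization.

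**Figure D1:**
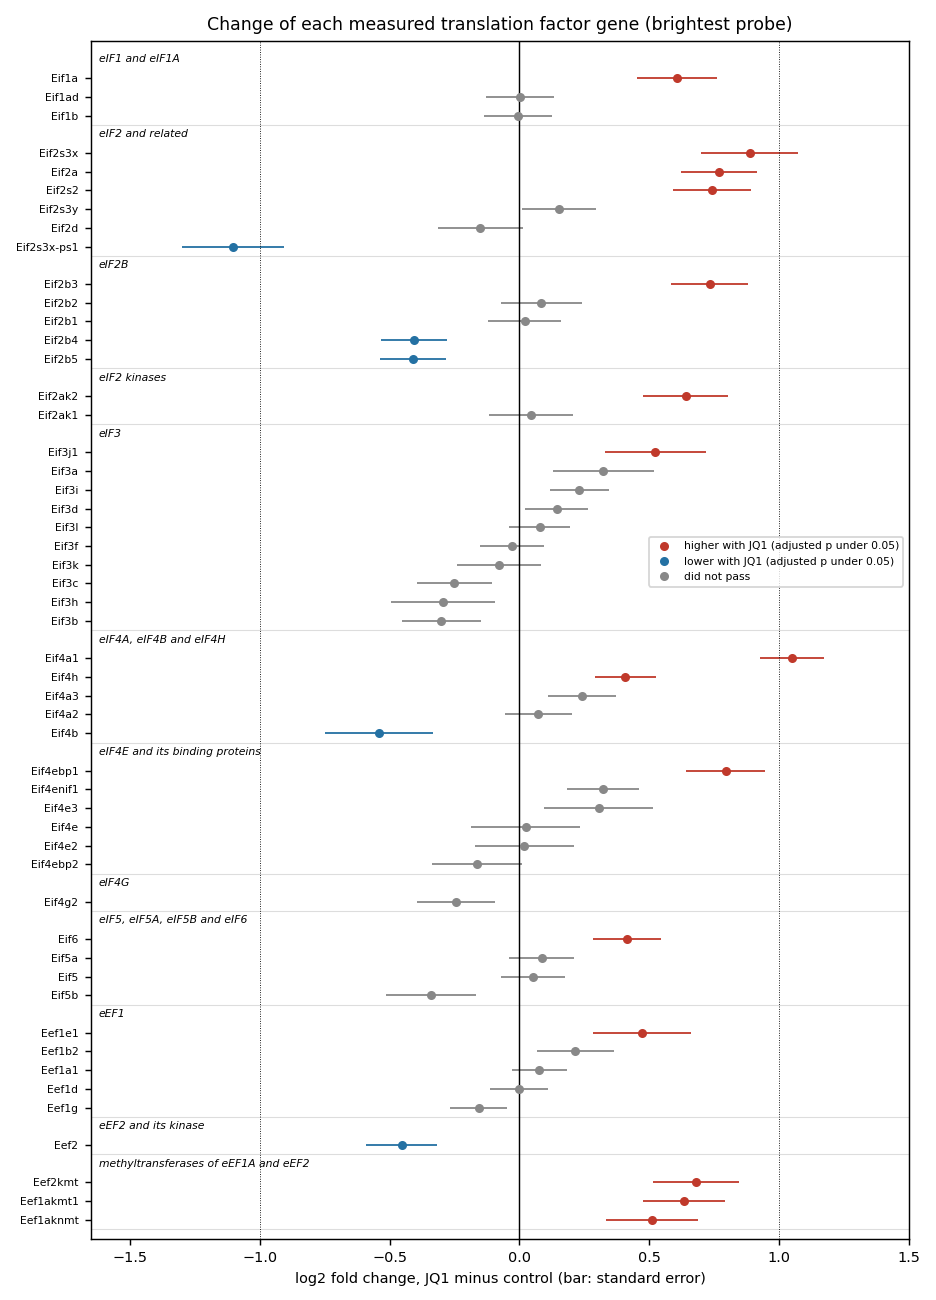
Log2 fold change (JQ1 minus control, x axis) with its standard error for each of the 51 measured translation factor genes, grouped by complex, from 3 JQ1-treated and 2 control mice. The 15 genes that were higher are spread over most complexes, eIF3 genes lie between -0.30 and 0.52, and only Eif4a1 and Eif2s3x-ps1 cross a dotted line, which marks a 2-fold change.

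Markers of most other testis cell types listed here moved with the groups. Sertoli cell markers were higher with JQ1 for 10 of 11 measured genes, with summed linear signals of 44091 to 52881 in JQ1 mice and 18177 to 19865 in control mice. Gata1, among the 10, was detected in 3 JQ1 mice and 0 control mice, so it was measured only through JQ1 mice. It was at least 1.62-fold higher with JQ1. All 6 measured Leydig cell markers were higher, with sums of 24211 to 34594 in JQ1 mice and 10989 to 12662 in control mice, and so were 7 of 8 macrophage markers, with sums of 2035 to 3420 in JQ1 mice and 966 to 1627 in control mice. Spermatogonial markers were higher for 3 of 7 genes and lower for 0, with sums of 2048 to 2345 in JQ1 mice and 1331 to 1514 in control mice. Pachytene spermatocyte markers were lower for 4 of 9 genes and higher for 0, with sums of 58289 to 60431 in JQ1 mice and 70489 to 74206 in control mice. Among markers of round spermatids 3 of 10 were lower, with sums of 37788 to 40259 in JQ1 mice and 43681 to 43818 in control mice. Among those of elongating spermatids 0 of 10 passed in either direction. Their sums overlapped, with 114412 to 128251 in JQ1 mice and 124178 to 125999 in control mice. All 10 were detected in every mouse, as the labelled tissue requires. The paper reports Akap4 and Prm1 as lower after JQ1, Prm1 by RT-PCR just short of significance. It also reports fewer elongating spermatids in stained sections. On these arrays Akap4 changed by -0.23 and Prm1 by -0.04, and the reason for this difference was not tested. In whole tissue, fewer cells of a type and less RNA per cell cannot be told apart. The part of the marker shifts in the changes of the translation factors was not tested.

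Promoter sequence is shown for the factors that passed and hold the letters CACGTG, the E-box to which proteins of the MYC family are known to bind, because genes of the translation machinery are well-known MYC targets and Myc is known to respond to JQ1 in other cells. In these testes, the paper reports, a set of MYC target genes was not suppressed by JQ1 but tended upward. The paper proposes that a larger share of spermatogonial RNA, as spermatids and spermatozoa are depleted, may account for this trend. RefSeq promoters of GRCm38.p6, which run from 250 bases before to 50 after a start site, were matched by symbol for 39 of the 51 measured genes. A gene with several start sites counted if any of its promoters held the box. The 6 letters, which read the same on both strands, stood in 10 of the 39, or 25.6%, compared with 11.2% of 9536 measured genes and 8.09% of 27025 genes in the promoter table. They stood in 3 of 10 genes that were higher with JQ1, 1 of 4 that were lower and 6 of 25 that did not pass, each by its brightest probe. Eif5a is among these 6, although its dimmer probes rose by 1.14 and 1.05 (limma adjusted p = 2.78e-05 and 2.48e-05). For the 4 genes that passed at the brightest probe, the box is given below in capitals with 20 bases on either side.
Eif4a1: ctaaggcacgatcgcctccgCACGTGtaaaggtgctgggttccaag
Eif4h: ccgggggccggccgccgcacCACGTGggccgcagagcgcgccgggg
Eef1aknmt: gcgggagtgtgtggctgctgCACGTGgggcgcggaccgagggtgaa
Eef2: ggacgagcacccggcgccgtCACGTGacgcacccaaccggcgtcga
The first 3 belong to genes that were higher with JQ1 and the last to a gene that was lower. They lie at chr11:69672587-69672632 on the minus strand for Eif4a1, chr5:134639480-134639525 on the minus strand for Eif4h, chr1:162548467-162548512 on the minus strand for Eef1aknmt and chr10:81176568-81176613 on the plus strand for Eef2. The box begins 189, 96, 147 and 43 bases before the start site in that order. A match of letters was counted, and binding was not measured.

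The helicase subunits of the cap-binding machinery held the largest increase. Eif4a1, the eIF4A that unwinds the leader of most messages, measured 12.41, 12.53 and 12.62 log2 units in JQ1 mice 1, 2 and 3 and 11.36 and 11.58 in control mice 1 and 2. Every treated animal was above both controls, and Eif4a1 rose 2.07-fold (log2 fold change 1.05 ± 0.12 SE, limma adjusted p = 3.34e-06). Its second probe rose by 0.81 (adjusted p = 0.0002), with 9.21, 9.27 and 9.29 in JQ1 mice and 8.56 and 8.34 in control mice. The 2-fold mark was missed under median scaling, where the change was 0.70, without control mouse 1, where it was 0.94, and without JQ1 mouse 3, where it lay just under 1.

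Its close paralog Eif4a2, which has the same activity, read 11.19, 11.21 and 11.40 in JQ1 mice against 11.30 and 11.09 in control mice, and the 2 groups overlapped (change 0.07, adjusted p = 0.673). A dimmer probe of Eif4a2 changed by -0.33 (adjusted p = 0.104). Eif4a3, a relative that sits in the exon junction complex on spliced messages, read 10.08, 9.98 and 9.94 in JQ1 mice and 9.76 in both control mice; its change of 0.24 did not pass (adjusted p = 0.144). The change of Eif4a1 exceeded that of Eif4a2 by 0.98 and that of Eif4a3 by 0.81, and the 5 mice's differences between the genes did not overlap between groups in either pair. The exact two-sided permutation test gave p = 0.1 for each, which is the smallest value that 3 against 2 mice allow (0.14 after adjustment over the 7 paralog pairs compared).

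Cofactors of the helicase changed in opposite directions. Eif4h, which stimulates eIF4A, had signals of 12.01, 11.96 and 12.07 in JQ1 mice and 11.58 and 11.63 in control mice, without overlap, and rose by 0.41 ± 0.12 (adjusted p = 0.00868). This call was lost under median scaling, where the change was 0.09, and without control mouse 1, where it was 0.38. Eif4b, a related RNA-binding cofactor, had 5.76, 6.39 and 5.80 in JQ1 mice and 6.49 and 6.56 in control mice. JQ1 mouse 2 lay close to the controls, and the fall by 0.54 ± 0.21 passed narrowly (adjusted p = 0.0424) and was lost when any mouse but JQ1 mouse 2 was left out.

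**Figure D2:**
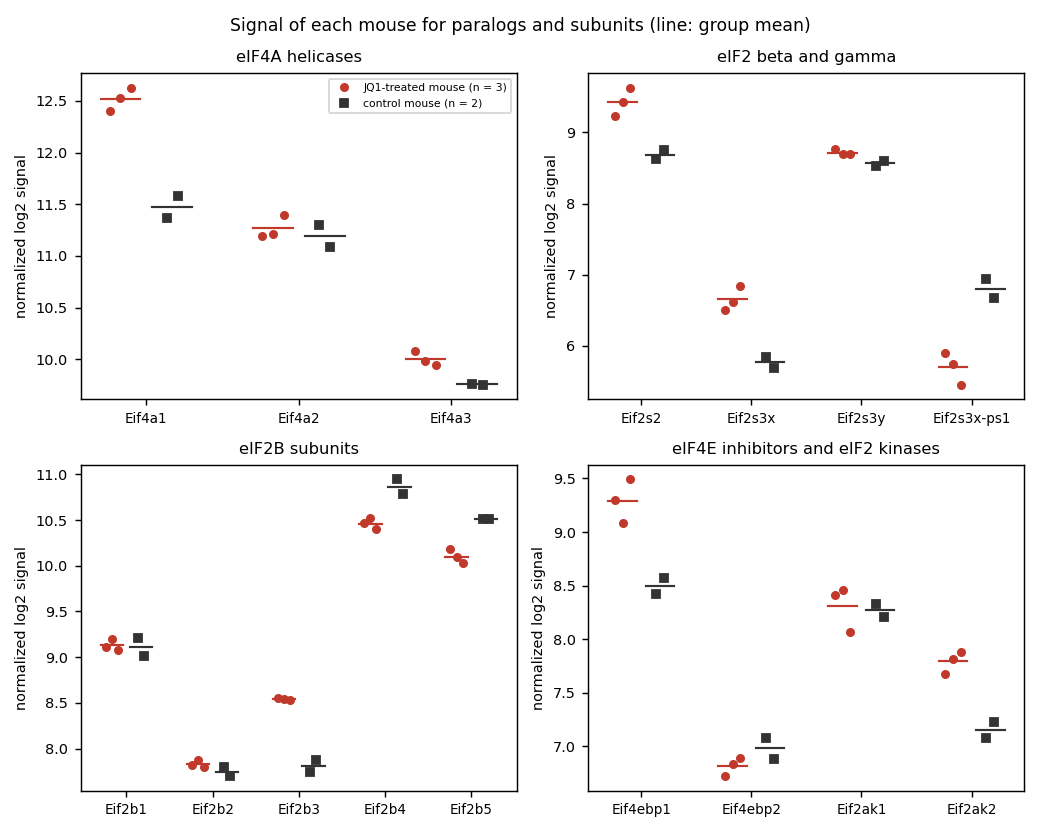
Normalized log2 signal (y axis, own scale per panel) of each mouse for eIF4A helicases, eIF2 beta and gamma, eIF2B subunits, and the eIF4E inhibitors and eIF2 kinases, with JQ1-treated mice as circles, control mice as squares and group means as lines. Eif4a1, Eif2s2, Eif2s3x, Eif2b3, Eif4ebp1 and Eif2ak2 of all 3 treated mice lie above both controls, while Eif2s3x-ps1, Eif2b4 and Eif2b5 lie below them.

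Among the 6 measured genes of eIF2 and the alternative initiator-tRNA factors, 3 rose, 1 fell and 2 missed the threshold. Eif2s2, the beta subunit, measured 9.24, 9.43 and 9.63 in JQ1 mice and 8.63 and 8.75 in control mice, and rose by 0.74 ± 0.15 (adjusted p = 0.000624). A second probe rose by 0.65 (adjusted p = 0.00659). For Eif2s3x, the X-linked gamma subunit that binds GTP and the initiator tRNA, the signals were 6.50, 6.61 and 6.85 in JQ1 mice and 5.83 and 5.69 in control mice. Treated and control animals did not overlap, and the increase was 0.89 ± 0.19 (adjusted p = 0.00091). Its size depended on background handling: it was 0.41 without background correction and passed there too.

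Eif2s3y, the Y-linked copy of the gamma subunit on which spermatogonial proliferation in the mouse depends, gave 8.76, 8.69 and 8.70 in JQ1 mice and 8.52 and 8.61 in control mice. The groups did not overlap, but the difference of 0.15 did not pass (adjusted p = 0.406). Eif2s3x changed by 0.73 more than Eif2s3y, with no overlap between the groups (exact permutation p = 0.1, adjusted 0.14), and over the alternatives this difference lay between 0.28 and 0.98. Eif2s3x-ps1, a copy of Eif2s3x on chromosome 15 that the annotation names as a pseudogene, went the other way, with 5.90, 5.74 and 5.45 in JQ1 mice and 6.94 and 6.66 in control mice. It fell 2.15-fold (log2 fold change -1.10 ± 0.20, adjusted p = 0.000214). Probe sequences were not used here, so that hybridisation of messages from the near-identical X, Y and pseudogene copies to each other's probes cannot be told apart from expression of the named gene. The size of this fall also depended on background: it was -0.52 without background correction, and -0.97 without control mouse 1.

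Eif2a, which can bring initiator tRNA to the ribosome in place of eIF2 and is distinct from the eIF2 alpha subunit, had signals of 10.01, 10.04 and 10.26 in JQ1 mice and 9.16 and 9.51 in control mice. It rose by 0.77 ± 0.15 (adjusted p = 0.000376). Eif2d, another factor able to place tRNA without eIF2, had 7.19, 7.21 and 7.25 in JQ1 mice and 7.36 and 7.37 in control mice, and its change of -0.15 did not pass (adjusted p = 0.475). For Eif2s1, the alpha subunit that the stress kinases phosphorylate, no probe was named, and it is not analysed here.

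The 5 subunits of eIF2B, the exchange factor of eIF2, did not move together: 1 was higher, 2 were lower and 2 did not pass. Eif2b3, which encodes gamma, measured 8.55, 8.54 and 8.53 in JQ1 mice against 7.74 and 7.88 in control mice and rose by 0.73 ± 0.15 (adjusted p = 0.000662). Eif2b4, which encodes delta, measured 10.47, 10.52 and 10.40 in JQ1 mice and 10.95 and 10.79 in control mice. It fell by 0.41 ± 0.13 (adjusted p = 0.0143), a call that was lost without control mouse 1 and under cyclic loess.

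Eif2b5, the catalytic epsilon subunit, read 10.18, 10.09 and 10.03 in JQ1 mice and 10.51 in both control mice, and fell by 0.41 ± 0.13 (adjusted p = 0.0146). Its 3 measured probes all passed, with changes of -0.35 and -0.41 at the dimmer pair, though the call of the brightest was lost without either control mouse and under cyclic loess. Eif2b1 and Eif2b2, the alpha and beta subunits, changed by 0.02 and 0.08 (adjusted p = 0.922 and 0.685).

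Probes for 2 of the 4 eIF2 kinases were measured. Eif2ak2, the double-stranded RNA kinase PKR, had 7.68, 7.81 and 7.88 in JQ1 mice and 7.08 and 7.22 in control mice, a gap without overlap, and rose by 0.64 ± 0.16 (adjusted p = 0.00382). Eif2ak1, the heme-regulated kinase, had 8.41, 8.46 and 8.07 in JQ1 mice and 8.33 and 8.21 in control mice, with overlap and a change of 0.04 (adjusted p = 0.845). The change of Eif2ak1 lay 0.59 below that of Eif2ak2, a difference of -0.59 (exact permutation p = 0.1, adjusted 0.14). Eif2ak3 and Eif2ak4, the kinases of endoplasmic reticulum stress and of amino acid shortage, were not detected on any array.

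eIF3, the largest factor, which bridges the small subunit and the cap complex, held few changes. Of its 10 measured genes 1 was higher, 0 were lower and 9 did not pass, with changes between -0.30 and 0.52 and a median of 0.02. Its brightest gene, Eif3i, read 13.21, 13.15 and 13.32 in JQ1 mice and 12.95 and 13.05 in control mice. The change of 0.23 did not pass at this probe (adjusted p = 0.106), while a second probe passed with 0.35 (adjusted p = 0.0278) and the third gave 0.05. Eif3j1, a loosely attached subunit, had 5.60, 5.81 and 5.69 in JQ1 mice and 5.26 and 5.10 in control mice, where only 1 control mouse was above background, and rose by 0.52 ± 0.19 (adjusted p = 0.036). This increase was lost on leaving out either control mouse, JQ1 mouse 2 or JQ1 mouse 3. Eif3b, a scaffold subunit, changed by -0.30 at its brighter probe (adjusted p = 0.118) and fell by 0.63 at its dimmer one (adjusted p = 0.0118).

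Among the cap-binding proteins themselves no gene passed at its brightest probe. Eif4e, the main cap-binding protein, was at the limit of detection: its only probe was detected in 2 JQ1 mice and 0 control mice, with 5.46, 5.11 and 4.95 in JQ1 mice and 5.15 and 5.14 in control mice, so no fold is given. Just below this limit lay Eef2k, the kinase of eEF2, with 5.55, 5.05 and 4.83 in JQ1 mice and 4.86 and 4.88 in control mice, and Eif4e1b, the oocyte-type relative of Eif4e, with 4.63, 4.52 and 5.22 in JQ1 mice and 4.49 and 4.56 in control mice. Each was detected in 1 JQ1 mouse alone and did not enter the counts.

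Eif4e2, a cap-binding protein that represses translation, had 10.61, 10.70 and 10.02 in JQ1 mice and 10.73 and 10.11 in control mice. Both groups were spread over much the same range (change 0.02, adjusted p = 0.948), although 2 dimmer probes of Eif4e2 fell by 0.53 and 0.58 (adjusted p = 0.0103 and 0.0163). Eif4e3, a further cap-binding relative, had 6.54, 7.15 and 7.19 in JQ1 mice and 6.45 and 6.87 in control mice (change 0.30, adjusted p = 0.254), and its other probes gave -0.47 and 0.52 without passing. Since Eif4e was not above background in either control mouse, its pairs with Eif4e2 and Eif4e3 are not given, although both count among the 7 compared.

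Of the eIF4E inhibitors, 1 passed. Eif4ebp1, whose protein is released from eIF4E when mTOR phosphorylates it, gave 9.30, 9.08 and 9.49 in JQ1 mice and 8.43 and 8.57 in control mice, far from overlap. It rose by 0.79 ± 0.15 (adjusted p = 0.000419). Eif4ebp2, its paralog, gave 6.72, 6.84 and 6.89 in JQ1 mice and 7.08 and 6.88 in control mice, with a change of -0.16 that did not pass (adjusted p = 0.463). Between the pair, the change of Eif4ebp1 exceeded that of Eif4ebp2 by 0.96 (exact permutation p = 0.1, adjusted 0.14). Eif4enif1, the nuclear importer of eIF4E, changed by 0.32 (adjusted p = 0.0658). Eif4g2, an eIF4G relative that lacks the eIF4E-binding region, had 9.44, 9.14 and 9.38 in JQ1 mice and 9.73 and 9.40 in control mice (change -0.25, adjusted p = 0.196), and a second probe of it gave 0.16.

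Among the 3 measured genes of eIF1 and eIF1A, 1 was higher and 2 did not pass. Eif1a, which keeps the scanning ribosome open and is carried on chromosome 18, had 8.74, 8.93 and 9.11 in JQ1 mice and 8.23 and 8.41 in control mice, and rose by 0.61 ± 0.16 (adjusted p = 0.00392). Without control mouse 1 its change of 0.52 no longer passed (adjusted p = 0.0618). Eif1b, a paralog of the start-codon gatekeeper eIF1, had 11.44, 11.73 and 11.67 in JQ1 mice and 11.73 and 11.50 in control mice, in overlapping groups (adjusted p = 0.98). Eif1ad, an eIF1A-related gene, had an adjusted p of 0.996.

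For Eif5 and Eif5a the result depended on the probe. Eif5, the GTPase activator of eIF2, read 13.11, 12.76 and 12.90 in JQ1 mice and 12.91 and 12.83 in control mice at its brightest probe (change 0.05, adjusted p = 0.759). At its 2 dimmer probes it fell by 0.31 and 0.35 (adjusted p = 0.0497 and 0.0304). Eif5a, which helps ribosomes through prolines and carries hypusine, differed more.

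The brightest Eif5a probe gave 10.64, 10.73 and 10.58 in JQ1 mice and 10.53 and 10.60 in control mice, with overlap and a change of 0.09 (adjusted p = 0.605). A second gave 9.26, 9.85 and 9.62 in JQ1 mice and 8.38 and 8.49 in control mice, a 2.20-fold increase (log2 fold change 1.14 ± 0.16, adjusted p = 2.78e-05). The last of the 3 gave 9.19, 9.51 and 9.30 in JQ1 mice and 8.20 and 8.37 in control mice, a 2.07-fold increase (1.05 ± 0.15, adjusted p = 2.48e-05). Both dimmer probes passed 2-fold, and whether the probes read different transcripts was not tested. Eif5b, which joins the subunits, changed by -0.34 (adjusted p = 0.117). Eif6, which keeps the large subunit from joining early, had 10.14, 10.27 and 10.21 in JQ1 mice and 9.74 and 9.84 in control mice and rose by 0.41 ± 0.13 (adjusted p = 0.0154). Eif6 no longer passed under median scaling, without control mouse 1 or without JQ1 mouse 2.

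**Figure D3:**
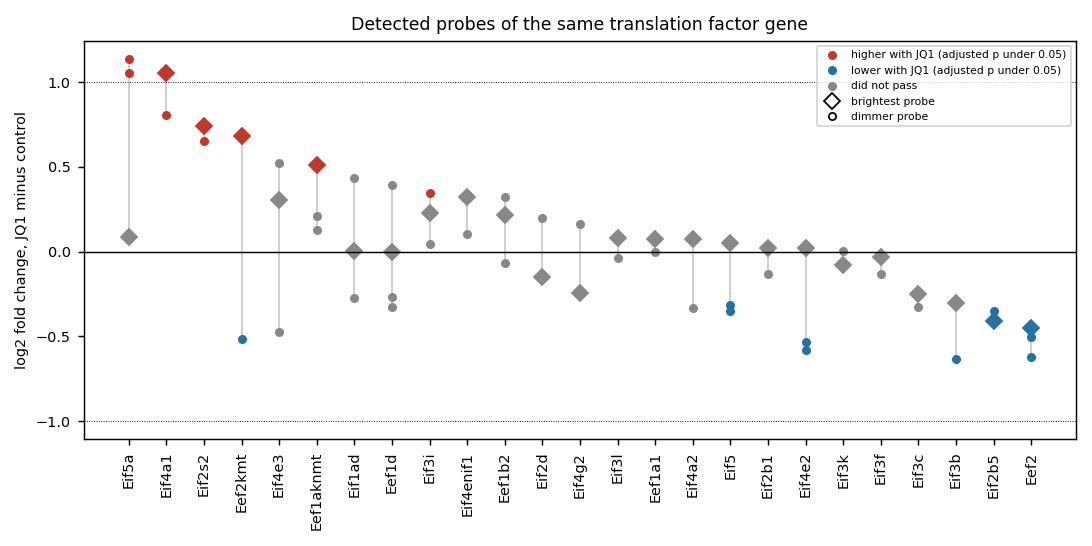
Log2 fold change (JQ1 minus control, y axis) of every measured probe of the 25 translation factor genes with more than 1 measured probe, the brightest as a diamond and dimmer ones as circles. The 2 dimmer Eif5a probes lie above 1 while the brightest lies at 0.09, and the 2 probes of Eef2kmt passed in opposite directions.

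Of the genes named for elongation factors, 1 of 5 measured eEF1 genes was higher, Eef1e1, which is not itself an elongation factor, and Eef2 was lower. Eef1a1, which delivers aminoacyl-tRNA, was detected in all mice. It had 14.30, 14.34 and 14.30 in JQ1 mice and 14.32 and 14.15 in control mice, with overlap and a change of 0.08 (adjusted p = 0.587). Eef1a2, the form of muscle and neurons, was not detected on any array at 3 probes. Eef1b2, Eef1d and Eef1g, which recharge eEF1A or support that step, did not pass either (adjusted p = 0.252, 0.993 and 0.25). Eef1e1, a scaffold protein of the tRNA synthetase complex, had 7.54, 8.13 and 8.18 in JQ1 mice and 7.40 and 7.55 in control mice, where JQ1 mouse 1 lay among the controls. Its increase of 0.47 ± 0.19 was at the threshold (adjusted p = 0.0497) and was kept in 7 of 18 alternative settings.

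Eef2, the translocase, had 10.65, 10.45 and 10.34 in JQ1 mice and 10.81 and 11.06 in control mice. All treated animals lay below both controls, and Eef2 fell by 0.45 ± 0.14 (adjusted p = 0.0117). Its other probes fell by 0.50 and 0.62 (adjusted p = 0.0112 and 0.00656). The call of the brightest probe was lost without control mouse 2, where the change was -0.33, and without JQ1 mouse 3, where it was -0.38.

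All 3 measured methyltransferases that modify eEF1A or eEF2 were higher at their brightest probe, and they belong here by symbol rather than as translation factors. Eef1akmt1, which methylates a lysine of eEF1A, had 8.05, 8.18 and 8.01 in JQ1 mice and 7.35 and 7.54 in control mice and rose by 0.63 ± 0.16 (adjusted p = 0.00337), a call lost without control mouse 1. Eef1aknmt, which methylates the first residue and a lysine of eEF1A, had 7.17, 6.84 and 6.96 in JQ1 mice and 6.51 and 6.45 in control mice and rose by 0.51 ± 0.18 (adjusted p = 0.0258). It no longer passed without either control mouse or without JQ1 mouse 1, and its 2 dimmer probes did not pass.

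Eef2kmt, which methylates a lysine of eEF2, gave contrary probes. The brighter one had 7.34, 7.42 and 7.51 in JQ1 mice and 6.76 and 6.72 in control mice and rose by 0.68 ± 0.17 (adjusted p = 0.00289). The dimmer one had 6.43, 6.79 and 6.52 in JQ1 mice and 7.22 and 6.98 in control mice and fell by 0.51 (adjusted p = 0.0294). As the mean of its probes, Eef2kmt changed by 0.08 (adjusted p = 0.659). Without the methyltransferases and the pseudogene, 47 genes remained, of which 12 were higher and 4 lower, with a median change of 0.08.

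Probes of the same gene were therefore compared for all 25 genes with more than 1 measured probe. Over all 88 probes, 20 rose with JQ1, 15 fell and 53 missed the threshold. When a gene was counted by any passing probe with none opposed, 16 genes were higher, 8 were lower, 1 had probes in both directions and 26 had none that passed. Eif3i and Eif5a joined the genes that were higher, and Eif3b, Eif4e2 and Eif5 those that were lower. Shares over all measured probes or genes were not computed for either way of counting, so these counts are not read against the array as a whole.

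The remaining 12 genes with a probe were not measured, which at this array's sensitivity does not show that they are silent. Besides Eef1a2, Eif2ak3, Eif2ak4, Eef2k and Eif4e1b they were Eif1ax, Eif3e, Eif3m, Eif4ebp3, Eif4g3, Eif5a2 and Eef1akmt2. Eif3e and Eif3m encode core subunits of eIF3, and their single probes were not detected on any array. Eif3h, another eIF3 subunit, was kept through detection in 1 JQ1 mouse and 2 control mice.

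Further genes of translation, in 8 lists with 76 genes of which 65 were measured, comprised 19 that were higher (29.2%), 10 that were lower (15.4%) and 36 that did not pass, with a median change of 0.01. The 19 include Trib3, which was not detected in either control mouse. Release factors held the largest increase: Etf1, which reads stop codons, had 9.91, 9.85 and 10.22 in JQ1 mice and 8.95 and 8.90 in control mice and rose by 1.06 (adjusted p = 1.57e-05). Gspt2, a GTPase partner of Etf1, rose by 0.98 (adjusted p = 6.62e-05), and these were the 2 of 5 release and recycling genes that passed. Gspt1, its brighter paralog, changed by -0.03 and did not pass (adjusted p = 0.87). Of 19 cytosolic aminoacyl-tRNA synthetases 4 were higher and 0 lower, led by Sars with 0.79 and Mars1 with 0.64 (adjusted p = 0.00387 and 0.00398).

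Among poly(A)-binding proteins and partners 3 of 7 were higher and 2 lower, and Pabpc4 rose by 0.88 (adjusted p = 0.000257) while Pabpc2, a testis-enriched form in the mouse, fell by 0.73 (adjusted p = 0.000136). Among other initiation helpers 2 of 6 were higher and 1 was lower. Mcts1, which acts on ribosome recycling and reinitiation, rose by 1.02 and the X-linked helicase Ddx3x by 0.83 (adjusted p = 0.00031 and 0.00307), while D1Pas1, its male germ cell copy, fell by 0.72 (adjusted p = 0.000692). D1Pas1 was named after its value was seen. These changes stood beside the higher Sertoli and Leydig cell sums and the lower pachytene sums given above, whose part in them was not tested.

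Of 8 kinases and regulators of initiation 2 were higher and 2 lower. Ppp1r15a, a regulatory subunit of the eIF2 phosphatase, was higher by 0.71 (adjusted p = 0.00467), while Ppp1r15b, its brighter paralog, was lower (-0.51, adjusted p = 0.00668). Larp1, a repressor of ribosomal protein messages, was lower (-0.55, adjusted p = 0.0149). Of 7 targets of the integrated stress response 4 were higher, Ppp1r15a again among them, and 1 lower. Chac1, a glutathione-degrading enzyme, fell by 1.11 (adjusted p = 0.000134), with 6.41, 6.10 and 5.96 in JQ1 mice and 7.37 and 7.16 in control mice. Trib3, a pseudokinase counted among those that were higher, was measured only through JQ1 mice and was not detected in either control mouse. It was at least 1.12-fold higher with JQ1, and a p-value against undetected controls is not given.

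Among the enzymes that modify eIF5A and eEF2, 2 of 5 were higher and 1 was lower. Dhps, which starts hypusine formation on eIF5A, rose by 0.54 (adjusted p = 0.0105), and Dph2, of the diphthamide pathway of eEF2, by 0.51 (adjusted p = 0.011). Of 9 mitochondrial translation factors 1 was higher and 3 were lower: the initiation factor Mtif3 fell by 0.92 (adjusted p = 0.000299) and the release factor Mtrf1l rose by 0.74 (adjusted p = 0.00966).

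**Figure D4:**
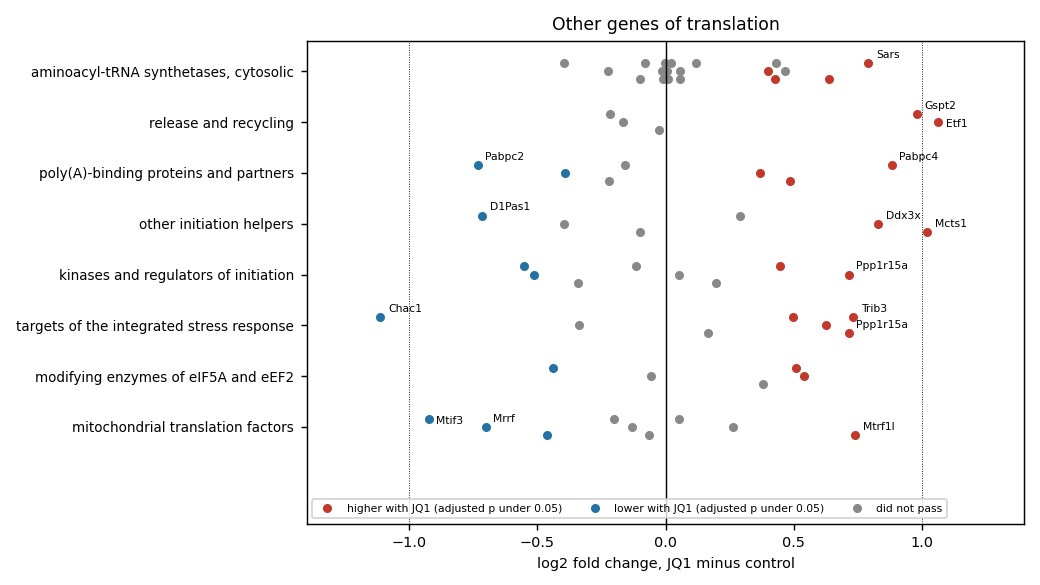
Log2 fold change (JQ1 minus control, x axis) of the 65 measured genes in 8 lists of other translation genes, 1 point per gene and list, with genes past 0.7 in either direction named. Etf1 and Mcts1 lie above 1 and Chac1 below -1, and most genes lie between the dotted lines at a 2-fold change.

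Across the arrays, 19623 to 20326 probes were detected in JQ1 mice and 17799 to 18918 in control mice, of 45281 on each. Correlations of the arrays over all measured probes were 0.988 to 0.991 among JQ1 mice, 0.985 to 0.991 among the control arrays and 0.933 to 0.966 between the groups.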

How the data were processed

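Testis RNA of 3 JQ1-treated and 2 control mice was measured on 6 Illumina bead arrays of 45281 probes. Per array and probe, the authors deposited a linear raw intensity with its detection p-value, and an intensity they had processed. According to the methods, that processing comprised background subtraction and normalization, after which the technical pair was averaged and negatives became 1 for testing; in which order background and normalization were handled is not stated in the sources used here. The raw intensities served as the start here. With limma 3.58.1 under R 4.3.3, normexp used the negative-control level implied by the deposited detection p-values (offset 16, which compresses the changes of dim probes), followed by quantile normalization across arrays and conversion of the deposited signals to log2. Both arrays of control mouse 1 were averaged, and that mouse counted as detected when either array was. The 20901 probes detected in 2 of 5 mice were fitted together with limma (lmFit, then eBayes with an intensity trend), a step tested on simulated data, with Benjamini-Hochberg adjustment over them. The brightest kept probe stood for a gene, which passed at an adjusted p under 0.05. Where no array of a group detected a probe, a bound replaces the fold. Precision is limited by the number of mice.

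Named probes follow the platform annotation: a single symbol is given for 34885 probes, several for 18 and none for 10378, and older symbols were replaced by way of gene IDs in RefSeq's GRCm38.p6 table. Eif1, Eif2s1, Eif3g and Eif4g1 have no named probe in it and are not analysed here. Argonautes appear under Ago symbols and are not members. Probes of genes with near-identical copies, such as Eif2s3x, Eif3j1, Eif4a1 and Eef1a1, may read the copies too.

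Values of every mouse are given for members past 2-fold, the 5 largest increases and decreases among those that passed, both genes of each paralog pair with measured probes, and the brightest gene of a complex; per further list of translation genes, up to 2 genes with the largest change that passed. Eif1a, Eif2b3, Eif2d, Eif3j1, Eif4h, Eif5a, Eif6, Eef1e1, Eef1aknmt, Eef2kmt, the members given by their change alone, D1Pas1, Gspt1 and Ppp1r15b were added after their values were seen. Members and lists were chosen with earlier results of these data known. Paralogs were compared by exact two-sided permutation of each mouse's difference over the mice. Alternatives tried were other background, offset, normalization, detection, variance and probe choices, the authors' values, each array of control mouse 1, a replicate block and leaving out each mouse.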

Additional observations from a re-analysis of the deposited data

How the results depend on the processing

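Over 18 alternatives, 8 calls held in each: Eif4a1, Eif2s2, Eif2s3x, Eif2a, Eif2b3, Eif2ak2 and Eif4ebp1 as higher and Eif2s3x-ps1 as lower. For the genes named with values, 555 of the recomputed changes stayed on their side of the threshold, 49 lost the call and 6 gained it, and 0 turned the direction of a call. Small changes of genes that did not pass (such as Eif4a2, Eif4e2 and Eif5) changed sign under some alternatives. Calls near the threshold (Eif4b, Eef1e1, Eif3j1, Eef1aknmt) were those lost most often, and the cause was not tested.

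Against 15 genes higher and 5 lower, with 1 in each direction past 2-fold and a median of 0.08, cyclic loess gave 2 lower and a median of 0.18. Median scaling gave 11 lower, 0 past 2-fold upward, a median of -0.12 and 18 lower among the other translation genes. Of all measured genes, 16.6% were lower under cyclic loess and 29.6% under median scaling. The count past 2-fold downward was 0 without background correction and with an offset of 50. Upward it was 2 with the authors' values and with the second array of control mouse 1, and 0 with the mean of a gene's probes. Counting any passing probe, an alternative chosen after seeing the data, gave 8 lower and 2 past 2-fold upward.

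With the replicate block, 13 genes were higher and 4 lower, 0 passed 2-fold upward and 0 downward, and the median was 0.12. Of all measured genes, 23.8% were higher and 20.1% lower in that setting. JQ1 mouse 3 has no control with its number and so adds nothing to this difference. Samples of the same number did not clearly deviate together (r = 0.15 for number 1 and 0.02 for number 2), and the numbers are not known to pair the mice.

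Leaving out 1 mouse at a time gave 9 to 16 genes higher and 2 to 5 lower, 0 to 1 past 2-fold upward and 0 to 1 downward, a median of 0.090 to 0.12, and 8 to 20 higher and 6 to 12 lower among the other translation genes. The lowest counts came without control mouse 1, where only control mouse 2 was left. The shares of all measured genes that passed were the lowest there as well. The median was 0.11 for the 51 genes and -0.01 over all measured genes. Without control mouse 2 these medians were 0.11 and 0.02. Without JQ1 mouse 3, 13 genes were higher and 3 lower, beside 21.3% and 17.3% of all measured genes.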
